A study of Oryza sativa with 12 samples.

Results

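Plasma membrane intrinsic proteins (PIPs) are the aquaporins of the plant cell surface. The 10 rice PIP genes described here were taken by locus ID from published family assignments, 10 of the 42004 loci in the deposited expression table. The rule itself uses no measured value, but the members were chosen with earlier results of these data known. They are PIP1-1 (LOC_Os02g44630), PIP1-2 (LOC_Os04g47220), PIP1-3 (LOC_Os02g57720), PIP2-1 (LOC_Os07g26690), PIP2-2 (LOC_Os02g41860), PIP2-3 (LOC_Os04g44060), PIP2-4 (LOC_Os07g26630), PIP2-5 (LOC_Os07g26660), PIP2-6 (LOC_Os04g16450) and PIP2-7 (LOC_Os09g36930). All 10 names occur in the RefSeq gene table on the chromosome that the locus ID gives, and its hyphen is kept here (PIP1-1 is PIP1;1 in the plant nomenclature). In that table PIP2-5 and PIP2-1 are direct neighbours on chromosome 7, and 1 other gene, which is not protein coding, lies between PIP2-4 and PIP2-5.

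PIPs form tetramers in which each subunit has its own water pore, and heat, drought and other stresses act on them through transcript level, phosphorylation and traffic to the membrane. The PIP1 and PIP2 subgroups differ in how well they work alone. In maize, PIP1 proteins reach the plasma membrane only when paired with a PIP2 partner, while PIP2 proteins conduct water by themselves. In rice, PIP2-3, PIP2-4 and PIP2-5 are known as genes of the root, while PIP1-1, PIP1-2 and PIP2-1 are abundant in leaves as well.

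Whole rice seedlings were profiled by poly(A) RNA sequencing in 12 libraries, 3 in each of 4 groups. The group dm_45C is the line labelled as a knockout of GRP3 and GRP162 (2 glycine-rich RNA-binding protein genes) after heat at 45 °C, and dm_29C is that line at 29 °C. The last number in the genotype label of this line changes with the replicate, so groups were taken from the sample titles. WT_45C is the japonica cultivar ZH11 after the same heat, and WT_29C is ZH11 at 29 °C. All groups share hydroponic growth at 29 °C before the treatment of 8-day-old seedlings, and the labels give the length of the heat once as 18 h and once as 42 h. Levels are in FPKM, a unit corrected for the length of the transcript and the size of the library, so that genes can be compared within a library.

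Some libraries stood apart in the RNA of the genes named in the genotype. GRP162 (LOC_Os12g43600) was at 12466 and 3288 FPKM in replicate 1 of dm_45C and dm_29C, against 746 and 699 in the other dm_45C libraries and 218 and 265 in the other dm_29C libraries. It lay between 1605 and 3720 in WT_45C and between 1002 and 1121 in WT_29C. GRP3 (LOC_Os03g46770), the other gene named in the genotype, was near the ZH11 level in the dm_45C libraries. It was at 17604, 10888 and 14023 FPKM in dm_45C, against 16274, 14427 and 16321 in WT_45C (log2 difference -0.17, limma adjusted p = 0.959). At 29 °C it was at 4340, 1086 and 1355 FPKM in dm_29C, against 5066, 3879 and 5489 in WT_29C. FPKM do not show whether a gene still makes a working protein, so these values do not test the knockout. Directions between genotypes rest on the labels, and "dm" is written for the libraries labelled double mutant. The tissue label names the whole plant, yet of 16 root marker genes 6 reached 1 FPKM in at least 3 libraries and 2, the nitrate transporters NRT2.1 and NRT2.2, were listed at 0 in all. The summed root markers lay between 6.68 and 16.6 FPKM in dm_45C and between 43.7 and 59.2 in dm_29C, and between 6.56 and 16.7 in WT_45C and 29.4 and 45.5 in WT_29C, most of it the silicon channel Lsi1 in the 29 °C groups. Lsi1 fell with heat in both lines and is also among the other aquaporins described below. Without it the root markers summed to 6.62 ± 3.53 FPKM in dm_45C and 8.86 ± 3.3 in dm_29C, and to 9.05 ± 5.31 in WT_45C and 5.53 ± 1.16 in WT_29C (SD, n = 3 each). Only the 6 root markers that reached 1 FPKM in at least 3 libraries were tested. Of these, apart from Lsi1, HMA3 rose with heat in dm (0.77, limma adjusted p = 0.0402) and the rest did not pass with heat in either line. The 6 leaf markers summed to between 1876 and 4823 FPKM in dm_45C and between 5869 and 7824 in dm_29C, and to between 2462 and 4080 in WT_45C and 3682 and 9808 in WT_29C. Most of these sums was Rubisco small subunit and Rubisco activase (RCA) RNA. With heat 3 of the 6 leaf markers fell in dm and 2 in ZH11, against 16.4% and 15.8% of all tested loci. All of them were Rubisco small subunit genes. The scarce CAB1R rose in dm (2.15, limma adjusted p = 0.000827) and in ZH11 (1.6, adjusted p = 0.00548). The also scarce CAB2R did not pass, at 0.65 in dm (limma adjusted p = 0.428) and -1.35 in ZH11 (0.103). RCA did not pass in limma in either line. Fewer cells of a type and less RNA per cell cannot be told apart in such bulk samples, and the part of tissue make-up in the results below was not tested.

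3 members, PIP1-1, PIP1-2 and PIP2-1, carried most of the PIP signal. PIP1-1 was highest by mean in all 4 groups, at 400.4 ± 193 FPKM in dm_45C and 598 ± 61.3 in dm_29C, and at 689 ± 259 in WT_45C and 576 ± 156 in WT_29C (SD, n = 3 each, as for every mean below). PIP1-2 came second, from 340.4 to 491 FPKM by group mean, and PIP2-1 after it, from 186 to 339. PIP1-1 lay above PIP1-2 in every pairing of libraries in dm_29C and in WT_29C, whereas their ranges overlapped in both heat groups. Together the 10 genes summed to 1157 ± 621 FPKM in dm_45C and 1577 ± 208 in dm_29C, and to 1482 ± 483 in WT_45C and 1298 ± 331 in WT_29C. That is between 0.134% and 0.329% of a library's FPKM. The PIP1 subgroup held 67.9% ± 5.6 of the sum in dm_45C, 69.7% ± 2.38 in dm_29C, 74.9% ± 4.41 in WT_45C and 71.4% ± 1.39 in WT_29C.

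**Figure D1:**
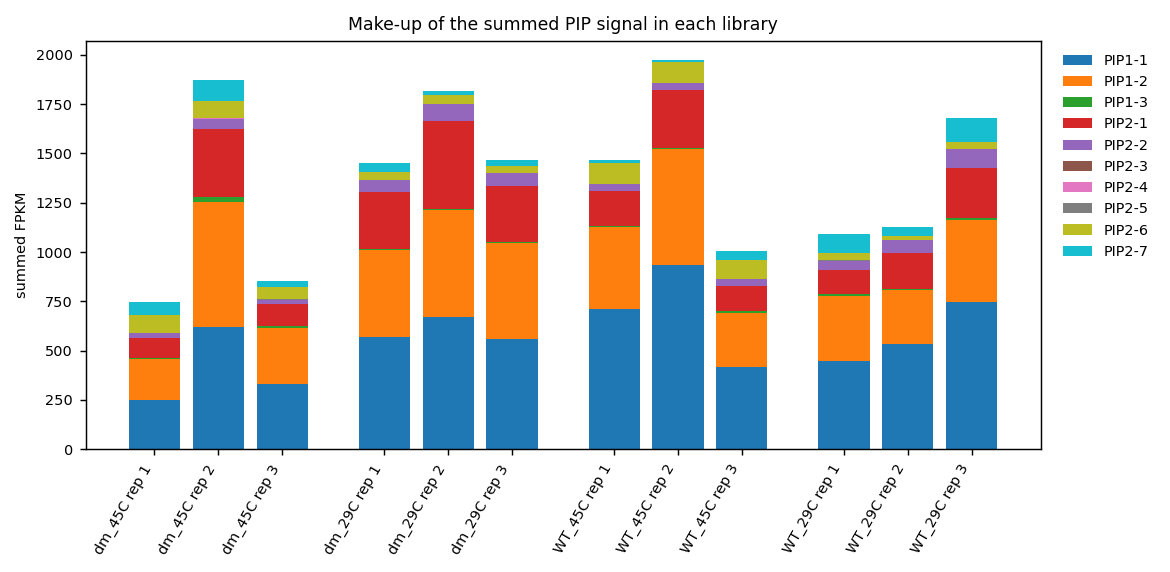
Summed FPKM of the 10 PIP genes (y axis) in each of the 12 libraries (x axis, "rep" is the replicate number), with each colour a gene. PIP1-1, PIP1-2 and PIP2-1 fill most of every bar, and the bars run from 747 FPKM in dm_45C replicate 1 to 1972 FPKM in WT_45C replicate 2.

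Below these 3 genes the order of levels differed between temperatures. In WT_29C the next place by mean was held by PIP2-7 (86.1 ± 37.7 FPKM), then PIP2-2 (69.3 ± 25.6) and PIP2-6 (31.3 ± 9.99), with overlapping ranges for the first pair alone. In WT_45C PIP2-6 came next (102 ± 3.59), above PIP2-2 (36.3 ± 1.18) and PIP2-7 (24.4 ± 19), and its libraries did not overlap with those of PIP2-2. In dm_29C the order was PIP2-2 (69.4 ± 12.6), PIP2-6 (40.8 ± 6.09) and PIP2-7 (31.7 ± 10.8), the last 2 overlapping. In dm_45C it was PIP2-6 (80.3 ± 14.3), PIP2-7 (67.2 ± 37.8) and PIP2-2 (30.7 ± 14.9), and each neighbouring pair overlapped. PIP1-3 came after these in all groups at means of 7.23 to 13.8 FPKM, and PIP2-3, PIP2-4 and PIP2-5 stayed at group means of 1.68 or lower.

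**Figure D2:**
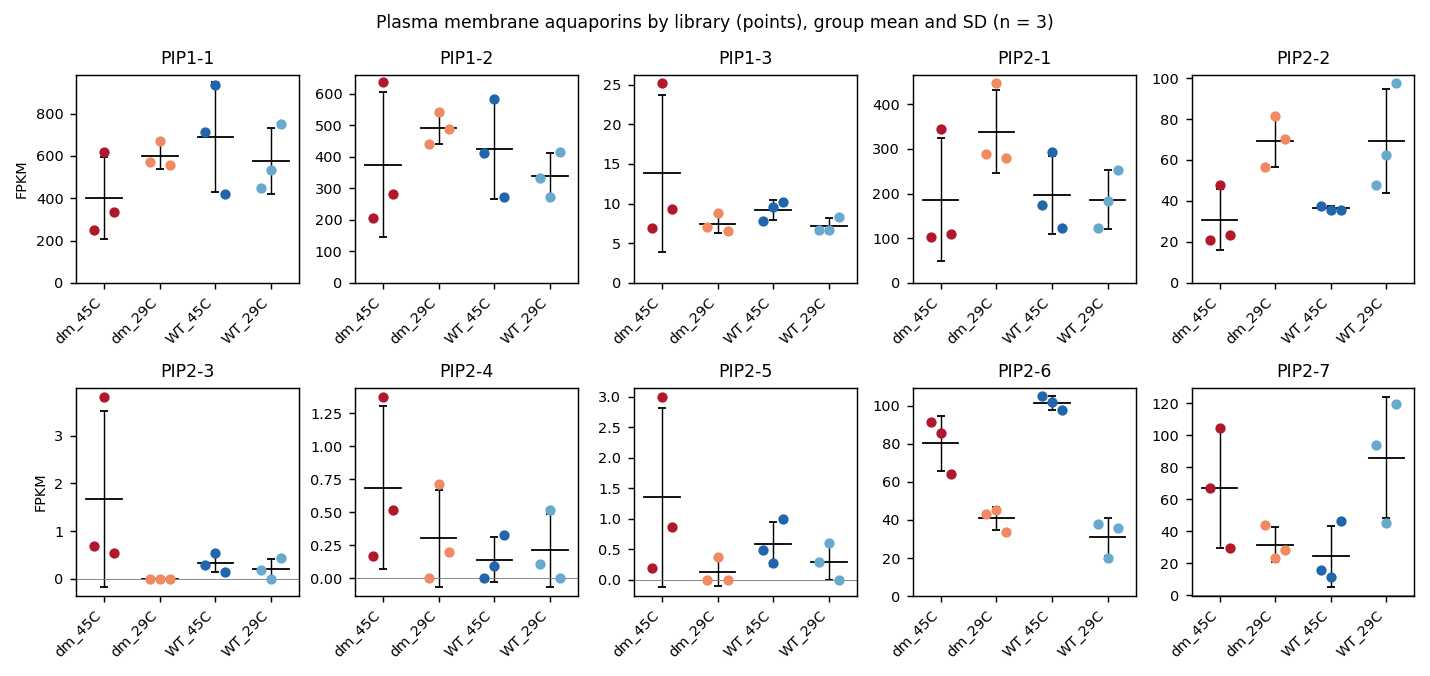
FPKM (y axis, a scale of its own in each panel) of the 10 PIP genes in the 4 groups (x axis), with each point a library, the wide bar the mean and the whiskers the SD of 3 libraries. The 3 WT_45C and the 3 dm_45C points of PIP2-6 lie above all 29 °C points, and the 45 °C points of PIP2-2 in each line lie below that line's 29 °C points.

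Differences were tested on log2(FPKM + 1) with limma over the 20305 loci that reached 1 FPKM in at least 3 libraries, and an adjusted p (Benjamini-Hochberg over all of these) under 0.05 counted as passing. Of the 10 PIP genes 7 met the filter. PIP2-3, PIP2-4 and PIP2-5 did not and are given by their values.

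Heat in ZH11 raised 1 of the 7 tested PIP genes and lowered 1, while 5 did not pass. The same comparison called 13.3% of all tested loci higher and 15.8% lower, so 1 of 7 in each direction is close to the share among all loci. The median log2 difference was 0.22 over the 7 genes and -0.04 over all tested loci. That of the 7 genes was -0.04 without WT_45C replicate 2 and 0.34 without WT_45C replicate 3, and 0.05, 0.12 and 0.40 without WT_29C replicate 1, 2 and 3. Of the 7, PIP2-6 had all WT_45C libraries above all WT_29C libraries, as did 19.2% of tested loci, and PIP2-2 had all of them below, as did 23.4%.

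PIP2-6, a water channel that also lets arsenite pass when expressed in frog oocytes, was the gene that rose. It was at 105, 102 and 97.8 FPKM in WT_45C, against 38.1, 19.8 and 35.9 in WT_29C. The heat libraries lay close together and far above all controls. The log2 difference was 1.72 ± 0.23 (SE), a 3.3-fold rise (limma adjusted p = 0.000262), and the call was kept in all 22 alternatives, with values from 1.43 to 1.89.

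PIP2-7, which has been linked to water transport under chilling in rice, was the gene that fell. It was at 15.55, 11.35 and 46.2 FPKM in WT_45C, against 93.9, 45.1 and 119 in WT_29C. The ranges overlapped, since WT_45C replicate 3 lay just above WT_29C replicate 2. The gene fell by 1.92 on the log2 scale, with a standard error of 0.54 (limma adjusted p = 0.0181). The call ended without WT_45C replicate 1 (adjusted p = 0.0685) or 2 (0.0705) and without WT_29C replicate 1 (0.0581) or 3 (0.0732), against 0.00458 to 0.0732 over 22 alternatives.

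PIP2-2 just missed the threshold. It was at 37.7, 35.6 and 35.6 FPKM in WT_45C, against 47.9, 62.4 and 97.65 in WT_29C. The heat libraries were close together and all lay below the controls. The log2 difference was -0.85 ± 0.30 (SE, limma adjusted p = 0.0513), and the adjusted p fell under 0.05 in 10 of 22 alternatives, with a range of 0.016 to 0.194. Among the 10 are fits that leave out dm libraries only, in which the estimate stays at -0.85.

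The abundant members did not pass in ZH11. PIP1-1 was at 713, 934 and 419 FPKM in WT_45C, against 446, 533 and 749 in WT_29C. The groups overlapped widely, with a log2 difference of 0.22 and a 95% interval of -0.56 to 1.0. PIP1-2 was at 413, 585 and 273 FPKM in WT_45C, against 333, 273 and 415 in WT_29C (log2 difference 0.27, interval -0.55 to 1.09). PIP2-1, a channel of high water permeability, was at 175, 293 and 123 FPKM in WT_45C, against 123, 183 and 253 in WT_29C (0.05, interval -0.93 to 1.03). For these genes the intervals reach well to both sides of 0. PIP1-3, also called RWC3 and studied in upland rice under drought, was at 7.78, 9.56 and 10.2 FPKM in WT_45C, against 6.71, 6.64 and 8.34 in WT_29C (0.31, interval -0.44 to 1.05). Adjusted p-values of these 4 genes in limma ran from 0.539 to 0.951.

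In the dm libraries heat again raised 1 of the 7 tested PIP genes and lowered 1, against 15.3% and 16.4% of all tested loci. The gene that rose was PIP2-6, as in ZH11, and the gene that fell was PIP2-2. Among the tested members these 2 were also those whose groups did not overlap, as was the case upward for 23.7% and downward for 23.9% of tested loci. The median log2 difference was -0.55 over the 7 genes and -0.01 over all tested loci, and that of the 7 genes was -0.21 without dm_45C replicate 1 and -1.02 without dm_45C replicate 2.

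PIP2-6 was at 91.25, 85.6 and 64.1 FPKM in dm_45C, against 43.1, 45.4 and 33.9 in dm_29C. All heat libraries lay above all controls. The log2 difference was 0.95 ± 0.23 (SE), a 1.94-fold rise (limma adjusted p = 0.00855). Without both dm replicate 1 libraries, in which GRP162 stood high, it was 0.90 and did not pass (adjusted p = 0.0597).

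PIP2-2 was at 21.1, 47.9 and 23.15 FPKM in dm_45C, against 56.45, 81.6 and 70.1 in dm_29C. The highest heat library was below the lowest control. PIP2-2 fell by 1.23 on the log2 scale, with a standard error of 0.30 (limma adjusted p = 0.00871). The call was kept in all 22 alternatives, with adjusted p-values of 0.000773 to 0.0433. Without both dm replicate 1 libraries the log2 difference was -1.16 (adjusted p = 0.0433).

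PIP2-7 was at 67.2, 105 and 29.4 FPKM in dm_45C, against 43.8, 23.0 and 28.25 in dm_29C. The groups overlapped, and the log2 difference was 0.93 with a 95% interval of -0.23 to 2.1 (limma adjusted p = 0.207).

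The values of the abundant members in dm_45C were split by library. PIP1-1 was at 250.02, 618 and 333 FPKM in dm_45C, against 569, 669 and 557 in dm_29C. PIP1-2 was at 206, 637 and 282 FPKM in dm_45C, against 442, 542 and 488 in dm_29C. PIP2-1 was at 103, 345 and 110.4 FPKM in dm_45C, against 289, 447 and 281 in dm_29C. In each of these genes replicates 1 and 3 lay below every control while replicate 2 lay within or above the control range. None of them passed in limma, with log2 differences of -0.68 (adjusted p = 0.17), -0.55 (0.29) and -1.06 (0.0917). Without dm_45C replicate 2 all 3 passed as lower, at -1.04 (0.0312), -1.02 (0.0246) and -1.62 (0.00583), which brings the count of PIP genes lower with heat in dm to 4 of 7, while 17.8% of all tested loci were then lower and 13.7% higher. PIP1-3 was at 6.96, 25.2 and 9.28 FPKM in dm_45C, against 6.99, 8.8 and 6.56 in dm_29C (0.62, adjusted p = 0.189), and passed as higher without dm_45C replicate 1 (0.97, adjusted p = 0.0487).

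**Figure D3:**
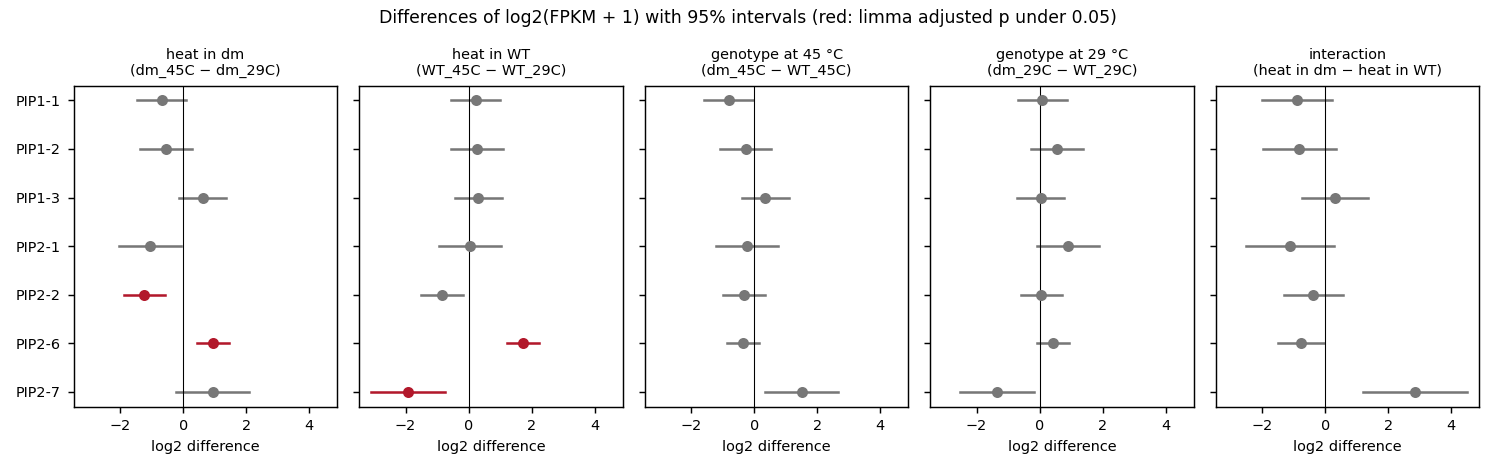
Differences of log2(FPKM + 1) (x axis) for the 7 tested PIP genes (y axis) in 5 comparisons, as points with 95% intervals from limma, in red where the adjusted p over 20305 loci is under 0.05. PIP2-6 lies to the right of 0 with heat in both lines, PIP2-2 is red on the left in dm, and PIP2-7 is red on the left in WT.

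Library dm_45C replicate 2 was the highest of its group for 9 of the 10 PIP genes, all but PIP2-6. Among the 7 tested members it was the highest for all but PIP2-6, and among all tested loci for 47.1%. The gap was seen in the scarce root-type members too. PIP2-3 was at 0.68, 3.8 and 0.55 FPKM in dm_45C and listed at 0 in all dm_29C libraries, so that these groups did not overlap either. PIP2-5 was at 0.19, 2.99 and 0.87 FPKM in dm_45C and at 0.38 or lower in dm_29C. PIP2-4 was at 0.17, 1.37 and 0.52 FPKM in dm_45C and at 0.71 or lower in dm_29C. In ZH11 the 3 genes lay at or under 0.99 FPKM in every library. Without the filter PIP2-3 passed as higher with heat in dm (log2 difference 1.21, limma adjusted p = 0.0315), on values that rest mainly on that library. Its summed root markers were 16.6 FPKM, against 11.1 and 6.68 in the other dm_45C libraries, and its summed leaf markers 4823, against 1876 and 2675. Their part in the high PIP values was not tested. PIP2-4 and PIP2-5 thus stayed at 2.99 FPKM or lower in every library while PIP2-1, their neighbour on the chromosome, had group means of 186 FPKM or more.

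The most abundant members shared their highest library. PIP1-1, PIP1-2 and PIP2-1 peaked in the same library in all 4 groups, replicate 2 of dm_45C, dm_29C and WT_45C and replicate 3 of WT_29C. Over all tested loci such peaks were counted for dm_45C alone, where 47.1% were highest in replicate 2. PIP1-1, PIP1-2 and PIP2-1 were all lowest in dm_45C replicate 1 and in WT_45C replicate 3, but at 29 °C they did not share a lowest library. In dm_29C it was replicate 3 for PIP1-1 and PIP2-1 and replicate 1 for PIP1-2, and in WT_29C replicate 1 for PIP1-1 and PIP2-1 and replicate 2 for PIP1-2. In dm_45C replicate 1 and WT_45C replicate 3 the 10 most abundant loci of the whole table took 24.2% and 23.7% of the FPKM sum, the largest such shares among the 12 libraries. The part of that in the low PIP levels was not tested. Measured by the root mean square difference of mean-centred log2(FPKM + 1) over the 12 libraries, the nearest tested PIP gene to PIP1-1 was PIP1-2 (0.29) and the nearest to PIP2-1 was also PIP1-2 (0.33). PIP2-6 and PIP2-7 were farthest from any other, with nearest distances of 0.67 and 1.0. Outside the family the loci nearest to PIP1-1 were LOC_Os03g30300 (0.21) and LOC_Os11g37560 (0.22). Unlike PIP1-1, PIP1-2 and PIP2-1, in WT_45C PIP1-3 and PIP2-7 were highest in replicate 3, and PIP2-2 and PIP2-6 in replicate 1.

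**Figure D4:**
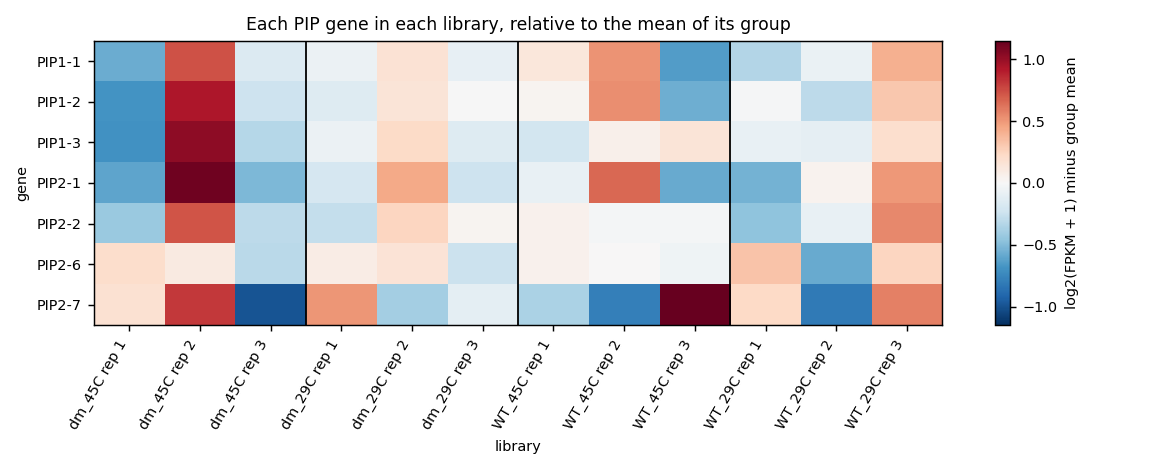
Log2(FPKM + 1) of the 7 tested PIP genes (rows) in each library (columns) minus the mean of its group (colour, red above and blue below), with lines between groups. The column of dm_45C replicate 2 is red for every gene shown, palest for PIP2-6. WT_45C replicate 3 is blue for PIP1-1, PIP1-2 and PIP2-1, red for PIP2-7 and pale red for PIP1-3.

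A gene's share of the summed PIP FPKM is not moved by a single scaling factor per library, but quantile scaling can move it, and it also moves with the other members. PIP2-6 held 4.57% to 12.2% of the sum in dm_45C, against 2.31% to 2.98% in dm_29C, and 5.16% to 9.72% in WT_45C, against 1.76% to 3.5% in WT_29C. PIP2-2 held 2.56% to 2.83% in dm_45C, against 3.89% to 4.79% in dm_29C, and 1.81% to 3.54% in WT_45C, against 4.4% to 5.82% in WT_29C. For both genes the ranges at 45 °C and 29 °C did not overlap in either line. PIP2-7 held 3.44% to 9% in dm_45C, against 1.27% to 3.02% in dm_29C, and 0.575% to 4.59% in WT_45C, against 4.01% to 8.62% in WT_29C. Its ranges were thus also apart in dm, but not in ZH11. The same held for PIP2-1, at 12.9% to 18.4% in dm_45C, against 19.2% to 24.6% in dm_29C. It held as well for PIP1-3, at 0.932% to 1.35% in dm_45C, against 0.448% to 0.484% in dm_29C. Separation in dm was therefore not particular to PIP2-6 and PIP2-2. Such shares are parts of 1 sum and so not separate results, and other loci have no like share. By FPKM, 23.7% of tested loci lay apart upward and 23.9% downward with heat in dm. In ZH11 it was 19.2% and 23.4%.

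Between the lines at 45 °C none of the 7 tested PIP genes passed in limma, 0 higher and 0 lower. An unadjusted p under 0.05 was seen for 2 of them and for 1618 of the 20305 tested loci. Of all tested loci 0.0148% were called higher in dm_45C and 0.00492% lower, so almost no locus passed. The median log2 difference was -0.28 over the 7 genes and 0.06 over all tested loci. The median of the 7 genes rested on single libraries, at 0.07 without dm_45C replicate 1, -0.69 without dm_45C replicate 2, -0.16 without dm_45C replicate 3 and -0.01 without WT_45C replicate 2. PIP2-7 averaged 67.2 ± 37.8 FPKM in dm_45C and 24.4 ± 19 in WT_45C (log2 difference 1.5, interval 0.33 to 2.67, limma adjusted p = 0.546). PIP1-1 averaged 400.4 ± 193 in dm_45C and 689 ± 259 in WT_45C (-0.81, interval -1.59 to -0.03, adjusted p = 0.616). PIP2-6 was the single tested member without overlap, lower in each dm_45C library than in any WT_45C library (-0.35, adjusted p = 0.738), whereas 3.96% of tested loci were placed so and 9.31% the other way. The scarce PIP2-3, below the filter, was at 0.55 FPKM or more in dm_45C and 0.54 or less in WT_45C, so its groups barely missed each other. Fitted without the filter it did not pass (log2 difference 0.81, limma adjusted p = 0.629).

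Between the lines at 29 °C again 0 of 7 passed in either direction in limma. Of all tested loci 0.197% were called higher and 0.0443% lower. The unadjusted p was under 0.05 for 1 of the 7 and for 1985 of the 20305 tested loci. The median log2 difference was 0.08 over the 7 genes and 0.02 over all tested loci. Each single library moved that of the 7 genes, which was 0.19, 0.00069 and 0.13 without dm_29C replicate 1, 2 and 3 and -0.0087, 0.04 and 0.32 without WT_29C replicate 1, 2 and 3. PIP1-2 and PIP2-1 were higher in all dm_29C libraries than in all WT_29C libraries, as were 8.66% of tested loci, and PIP2-7 was lower in all, as were 5.42%. PIP2-1 averaged 339 ± 93.7 FPKM in dm_29C and 186 ± 65.5 in WT_29C (log2 difference 0.89, interval -0.09 to 1.87, limma adjusted p = 0.569). PIP1-2 averaged 491 ± 50.4 in dm_29C and 340.4 ± 71.4 in WT_29C (0.54, interval -0.28 to 1.36, adjusted p = 0.708). PIP2-7 averaged 31.7 ± 10.8 in dm_29C and 86.1 ± 37.7 in WT_29C (-1.36, interval -2.52 to -0.19, adjusted p = 0.452). PIP2-2 was nearly level at 29 °C, at 69.4 ± 12.6 FPKM in dm_29C and 69.3 ± 25.6 in WT_29C, with an interval of -0.61 to 0.70.

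The difference between the heat responses was tested as an interaction. No PIP gene passed in limma, 0 of 7 in either direction. The unadjusted p was under 0.05 for 2 of the 7 and for 1039 of the 20305 tested loci. Among all tested loci 0% were called with a more positive response in dm and 0.0148% with a more negative one. The median was -0.77 over the 7 genes and 0.03 over all tested loci, and that of the 7 genes was -0.47 without dm_45C replicate 1 and -0.48 without WT_29C replicate 2. PIP2-7 had the widest gap, since its log2 difference with heat was 0.93 in dm and -1.92 in ZH11, which gives 2.86 ± 0.76 (SE, interval 1.21 to 4.51, limma adjusted p = 0.721). Its estimate stayed between 2.45 and 3.43 over 21 alternatives and passed in none of them. PIP2-6 differed by -0.77 (interval -1.49 to -0.05, adjusted p = 0.952), and PIP2-1 by -1.11 (interval -2.50 to 0.27, adjusted p = 0.974). The heat fall of PIP2-7 in ZH11 is therefore not shown to differ from the response of the dm libraries.

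The other aquaporins, 15 genes of the tonoplast (TIP), NIP and SIP groups and PIP2-8, give the surroundings of the family. PIP2-8, TIP3-1 and TIP5-1 were listed at 0 in every library, and with TIP3-2, also below the filter, this left 11 tested. Heat in dm raised 2 and lowered 4 of these, against 15.3% and 16.4% of all tested loci, with a median log2 difference of -0.39 (all loci -0.01). Heat in ZH11 raised 3 and lowered 4, against 13.3% and 15.8%, with a median of -0.49 (all loci -0.04). In limma 0 passed between the lines or in the interaction. An unadjusted p under 0.05 was seen for 2 of the 11 at 45 °C, 2 at 29 °C and 1 in the interaction. Over all 20305 tested loci these counts were 1618, 1985 and 1039. TIP1-2, a vacuolar water channel, averaged 930.4 ± 372 FPKM in dm_45C and 99.9 ± 12 in dm_29C (log2 difference 3.14, limma adjusted p = 3.41e-05), and 999 ± 189 in WT_45C and 105 ± 36.1 in WT_29C (3.29, adjusted p = 2.89e-05). The silicon channel of leaves NIP2-2 (Lsi6) averaged 163 ± 57.4 in dm_45C and 39.9 ± 5.03 in dm_29C (1.95, adjusted p = 0.000229), and 102 ± 28.9 in WT_45C and 21.1 ± 4.1 in WT_29C (2.2, adjusted p = 0.00012). The root silicon channel NIP2-1 (Lsi1) averaged 4.84 ± 2.36 in dm_45C and 44.7 ± 8.15 in dm_29C (-3.05, adjusted p = 3.23e-05), and 1.78 ± 0.393 in WT_45C and 30.6 ± 7.3 in WT_29C (-3.49, adjusted p = 1.51e-05). TIP4-1 and TIP4-2 fell in both lines. In dm the log2 differences were -1.11 for TIP4-1 (adjusted p = 0.0222) and -1.60 for TIP4-2 (0.0108), and in ZH11 -1.58 (0.00374) and -2.23 (0.00178). The dm calls were lost in 3 alternatives for TIP4-1 and, for TIP4-2, without both dm replicate 1 libraries. TIP1-1 rose in ZH11 (1.53, adjusted p = 0.00565) and had 0.29 in dm (0.559), with an interaction of -1.24 that did not pass (adjusted p = 0.932). TIP2-1 fell in dm (-1.31, adjusted p = 0.0213) and SIP1-1 in ZH11 (-0.65, adjusted p = 0.0241), and their calls were lost in 6 and 4 of their alternatives. No difference between PIP genes and other aquaporins was tested.

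**Figure D5:**
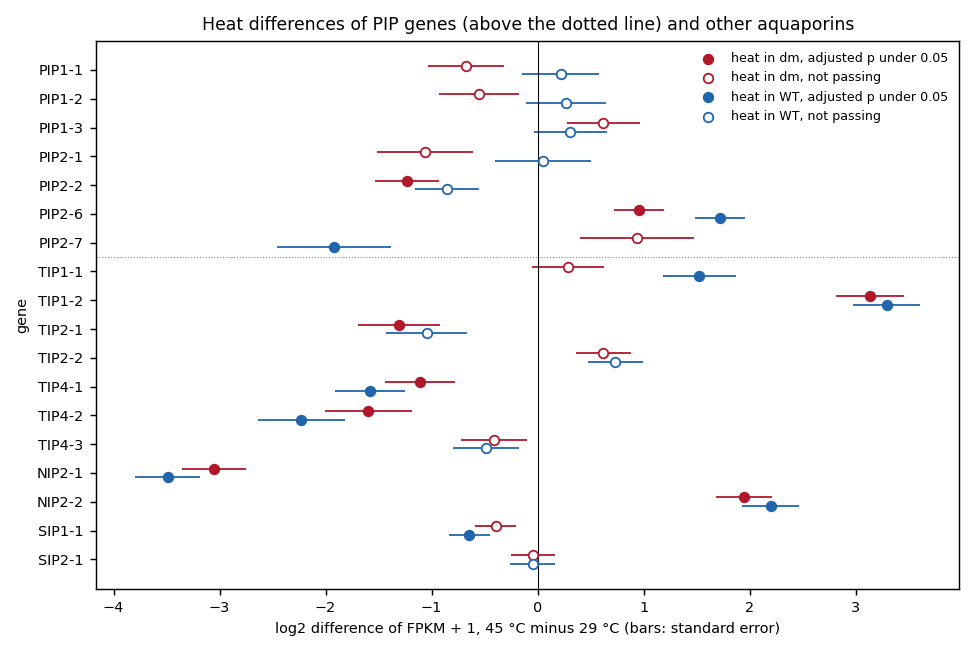
Log2 difference of FPKM + 1 with heat (x axis, bars are standard errors) for the 7 tested PIP genes and 11 tested other aquaporins (y axis), in red for dm and in blue for WT, filled where the limma adjusted p is under 0.05. TIP1-2 and NIP2-2 lie right of 0 and NIP2-1 left of 0 in both lines by more than any PIP gene does in the same direction.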

How the data were processed

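The authors deposited 1 FPKM value per locus and library, per the file headers. Tools listed in the submitters' processing notes, with no role or order, include StringTie 1.3.4d, which can write FPKM, the aligner HISAT2 2.0.4, cutadapt 1.9 and UMI-tools. Genome build and annotation: not given in the sources used here. FPKM summed to between 558435 and 599861 per library. Read counts and depth are unknown, so no counting interval is given, and reads shared between close PIP relatives cannot be apportioned. Columns headed GM, a code in no label, were taken as dm by elimination after the WT columns were matched.

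From these values log2(FPKM + 1) was fitted in limma 3.58.1 (R 4.3.3) with 4 group means over 12 libraries and an intensity trend. The fit covered the 20305 loci at 1 FPKM or more in at least 3 libraries. It was also run on simulated data with independent noise at each locus. Those data held no shift shared by the loci of a library, so that run says nothing about such shifts. Means and SDs were computed in pandas 2.3.3 (Python 3.11.15), plots in matplotlib 3.10.9. The names of the genes follow the literature on rice aquaporins. Of the other aquaporins 14 of 15 are named in the RefSeq table (assembly ASM3414082v1). The members and lists were chosen with earlier results of these data known. Named genes are all 10 members, other aquaporins past the threshold, GRP3, GRP162 and tissue markers as a check of the labels, and the loci nearest to the most abundant member. Replicates are not stated to be separate cultures, so p-values measure the spread between libraries.

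Between the lines at 45 °C libraries with the same replicate number deviated together to a small degree (correlations over loci 0.106, 0.293 and 0.141). The labels do not say that the numbers pair libraries, so this is only a hint from the data, and pairing was not tested. With a block for the number, no PIP gene passed in that comparison either. The other comparisons had at least 1 number under 0.1.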

Additional observations from a re-analysis of the deposited data

How the results depend on the processing

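Each PIP result was recomputed under up to 23 alternatives, 770 values in all, of which 750 kept their direction where called and their side of the threshold, 5 lost a call, 15 gained one and 0 changed sign with a call. Leaving out a library of a group not compared keeps the estimate and alters only its spread and the adjustment. The 770 values are thus not separate tests. With heat in ZH11, the count of members lower was 2 in place of 1 with the filter at FPKM 5, with TPM, median-of-ratios or quantile scaling, with only the groups compared and without both dm replicate 1 libraries, and 0 to 2 with 1 library left out, the lowest through PIP2-7 and the highest through PIP2-2. In the settings named, 13.4% (only the groups compared) to 18.8% (filter at FPKM 5) of all tested loci were lower. With 1 library left out the share was 11.1% to 16.5%. With heat in dm, the count of members higher was 2 without the filter, 0 without both dm replicate 1 libraries and 1 to 2 with 1 library left out, and that of members lower 1 to 4. Of all loci fitted, 10.7% were higher with heat in dm without the filter and 10.5% without both dm replicate 1 libraries. Over all tested loci, heat in ZH11 called 1791 (without WT_45C replicate 1) to 3549 higher (2701 in the report) and 2255 to 3560 lower (3204). Heat in dm called 2091 to 3709 higher (3102) and 1700 (without both dm replicate 1 libraries) to 3840 lower (3328). Between the lines at 45 °C 1 to 31 loci were higher and 0 to 14 lower (3 and 1, both highest without dm_45C replicate 3), at 29 °C 10 to 53 and 0 to 11 (40 and 9), and in the interaction 0 to 2 and 0 to 3 (0 and 3). The cause of these shifts was not tested.

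With the replicate block 2 members were lower with heat in ZH11, PIP2-2 passing (limma adjusted p = 0.0393), while 15.3% of all tested loci were lower. With heat in dm 2 were lower, PIP2-1 passing (0.0364), while 16% of all tested loci were lower. Replicate numbers were not shown to pair libraries. Of the 6 libraries compared, 0 correlated best with their own number with heat in ZH11, 4 with heat in dm, 4 between the lines at 29 °C and 6 between the lines at 45 °C. At 45 °C the block called 1 locus higher and 0 lower over all 12 libraries, and 5 and 0 with only the 45 °C groups, a fit chosen after seeing the data. It changed no other PIP call. Precision is limited by 3 libraries a group and by unknown depth.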
